A study of Rattus norvegicus with 8 samples.

Results

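Cultured rat pulmonary artery smooth muscle cells exposed for 4 h to S-nitrosoglutathione (GSNO), a donor of nitric oxide, were set against untreated cells. The comparison used 4 of the 8 arrays of the series, 2 at 4 h and 2 untreated, with the other 4 arrays (1 h and 2 h of GSNO) in the same fit to estimate the spread. All 8740 probe sets that are not control features of the array were candidates, and 5877 had enough signal to be kept. The cells were primary cultures grown out of explants of pulmonary arteries from adult Sprague-Dawley rats, with endothelium and adventitia stripped off before culture. No allele or other agent is named for any group. The sources disagree on the concentration of GSNO: it is 100 μmol/L in the series design but 100 mmol/L in the treatment protocol. The untreated cells have no stated time in culture, so changes with hours in culture cannot be told apart from those of GSNO. The series design speaks of 2 independent preparations, and the labels number the arrays of each group 1 and 2 without saying that the number is the preparation. Where arrays came from the same preparation, the p-values measure only the spread between arrays.

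Nitric oxide acts in smooth muscle mainly by binding soluble guanylate cyclase, a heterodimer of an alpha and a beta subunit whose product, cGMP, activates a protein kinase that lowers calcium and relaxes the vessel. GSNO can also pass its nitroso group to thiols of proteins, including those of the sensor KEAP1, whose partner NRF2 then switches on genes of glutathione synthesis, haem breakdown and quinone reduction. Cyclic nucleotides further act on the transcription factor CREB, which binds the cAMP response element in the promoters of rapidly induced genes.

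Per array, the median signal ran from 100.0 to 141.2 and the 3' to 5' ratio of the GAPDH control from 0.934 to 1.08. Arrays are named by group and number, as in control 1 and 4 h 2. Arrays with the same number deviated together from their group means (correlations of 0.387 to 0.569), and the numbers 1 and 2 had different scan days. The experiment records show that the 4 h and control arrays numbered 1 belong to different recorded experiments, while all arrays numbered 2 share 1 experiment. A fit with that record as the block is therefore given beside the results. Markers of smooth muscle were strong, with the summed signal of 13 probe sets at 97077 and 67938 in control and 83761 and 57777 at 4 h. The summed signals of the endothelial markers (11 probe sets) were 889 and 899 in control and 504 and 784 at 4 h, and those of the macrophage and leukocyte markers (16 probe sets) were 1050 and 1649, then 916 and 1370. The lung epithelial markers (13 probe sets) summed to 1346 and 901, then 1017 and 672, the cardiac and skeletal markers (20 probe sets) to 2345 and 1289, then 1445 and 992, and the fibroblast markers (13 probe sets) to 1542 and 2547, then 1371 and 2142. Signals were below the array's 40th percentile on all 4 arrays for 5 of 11 endothelial, 9 of 16 macrophage and leukocyte, 8 of 13 lung epithelial, 9 of 20 cardiac and skeletal and 7 of 13 fibroblast probe sets. Among all these markers, limma called a probe set of Dcn (fibroblast) and of Myh11 (smooth muscle) as lower at 4 h. The part of other cells in the results was not tested. Fewer cells of a type and less RNA per cell cannot be told apart in these bulk samples.

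Each probe set has 1 signal per array, an intensity in arbitrary units, and signals are given for array number 1 first and number 2 second. Fold changes are differences of log2(signal + 21.1), which understate the change of weak probe sets, with the standard error (SE) of the fit and n = 2 arrays a group. After 4 h, 250 probe sets were higher (4.25% of those tested) and 216 were lower (3.68%), in all 466 or 7.93%, by limma with the array number in the model and a Benjamini-Hochberg adjusted p under 0.05. The higher ones covered 156 genes and the lower ones 151 genes, and 67 called probe sets had no single gene symbol. Of the rises, 200 exceeded 1 on the log2 scale, 70 exceeded 2 and 28 exceeded 3. Of the falls, 164, 31 and 6 did. All 466 moved the same way within either array number, and for 447 the control and 4 h signals did not overlap. The fit that made the calls used these same arrays, so this agreement follows largely from the selection. The share among all kept probe sets is not given here. The median log2 fold change over all kept probe sets was -0.16, so small falls have to be read against it. Scaling the arrays to a common median moved that median to 0.04 and the counts to 295 higher and 119 lower, or 71.3% higher in place of 53.6%. The calls fell to 184 without control 1 and to 245 without control 2. They also fell to 165 with the recorded experiment as the block (162 of them among the 466) and to 90 with no replicate block. A call is named stable below where it held without each of the 8 arrays in turn and also with the recorded experiment in place of the array number. Where a call was lost without single arrays, the arrays whose absence ended it and the highest adjusted p are given. Where a gene has several called probe sets each is named by its log2 fold change, as in Npr3 at -1.32. Stable does not cover the fits with no replicate block, without a trend or on the 2 groups alone. Some calls named stable, such as Agtr1a at -1.42 and at -1.59, were lost with no replicate block.

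**Figure D1:**
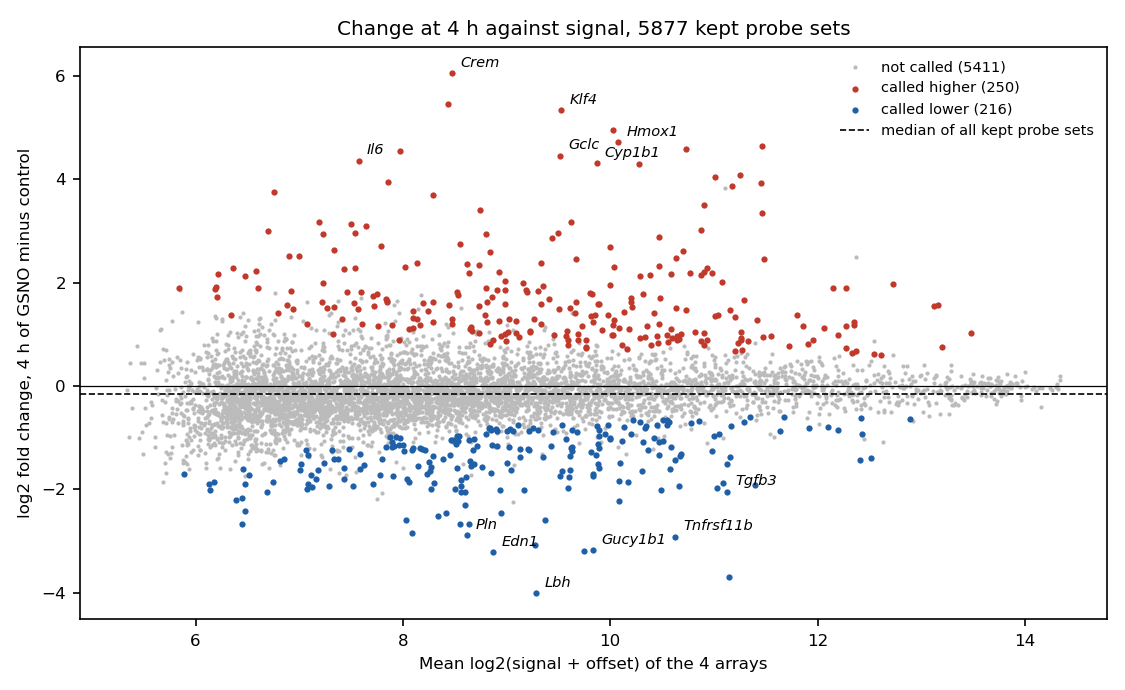
Log2 fold change at 4 h (vertical axis) against the mean log2(signal + offset) of the 4 arrays (horizontal axis) for the 5877 kept probe sets. Called rises (250, red) reached 6.06 for Crem, called falls (216, blue) reached -4.01 for Lbh, and the dashed line marks the median of -0.16.

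The largest rises were of genes for a transcriptional modulator of cAMP signalling, antioxidant and xenobiotic enzymes, zinc finger factors and a cytokine: Crem, Nqo1, Klf4, Hmox1, Hk2, Gclc, Il6, Cyp1b1, Nr4a3, Medag, Bmal1, Cd55, Gsr, Klf10 and Cebpb. The largest falls were Lbh, Edn1, Gucy1a1, Gucy1b1, Cnksr3, Tnfrsf11b, Pln, Egr1, Dusp6, Bmp3, Nexn, Sorbs2, Sh2d4a, Bdnf and Dcn. For each of these 30 genes, both 4 h signals lay on the same side of both control signals, which the choice of the largest called changes favours. Lbh, a cofactor of transcription named for limb bud and heart, had the deepest fall, with signals of 3003 and 2049 in control and 107 and 167 at 4 h (log2 fold change -4.01 ± 0.40 SE, adjusted p = 0.000279). Cnksr3, a scaffold of kinase signalling, had signals of 2257 and 1388 and then 214 and 171 (log2 fold change -3.07, adjusted p = 0.000391). Medag, named for a role in mesenteric fat formation, read 196 and 1466 in control, so its controls differed among themselves, and 6612 and 6319 at 4 h (log2 fold change 3.51 ± 0.50 SE). Sh2d4a, a protein with an SH2 domain, read 620.0 and 924 in control and 101 and 128 at 4 h (log2 fold change -2.53). The calls of Lbh, Cnksr3 and Sh2d4a were stable, and Medag stayed called without each array in turn but not with the recorded experiment as the block.

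**Figure D2:**
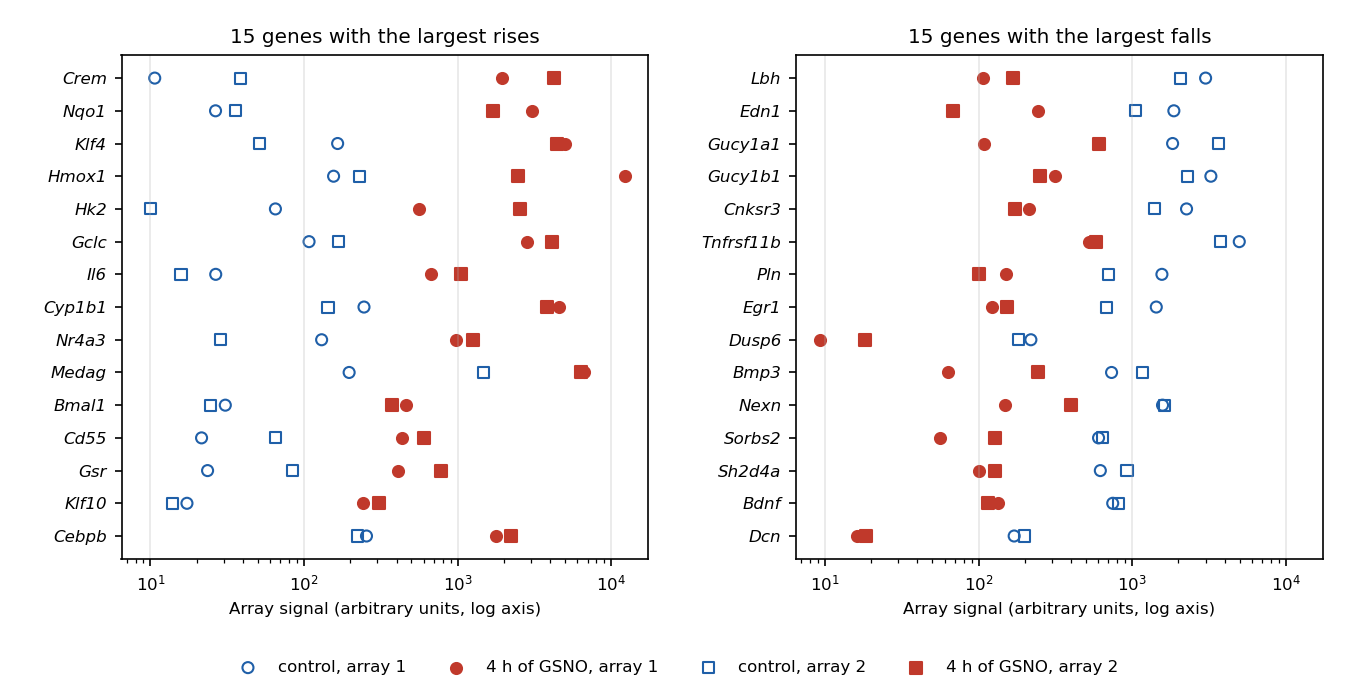
Signal on each of the 4 arrays (log axis, arbitrary units) of the 15 genes with the largest rises (left) and the 15 with the largest falls (right), each by its called probe set with the largest change. Open blue symbols are control and filled red symbols 4 h of GSNO, circles arrays numbered 1 and squares arrays numbered 2; for all 30 genes the red symbols lie to 1 side of the blue ones.

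The lists below were set beside all 3474 kept genes, of which 134 (3.86%) were called higher and 133 (3.83%) lower by the probe set with the highest mean, with a median log2 fold change of -0.17. The 34 lists of functions together held 60 calls higher and 53 lower, and a gene can stand in several of them. Lists and members were chosen with earlier results of these data known, so the counts do not rank the functions.

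**Figure D3:**
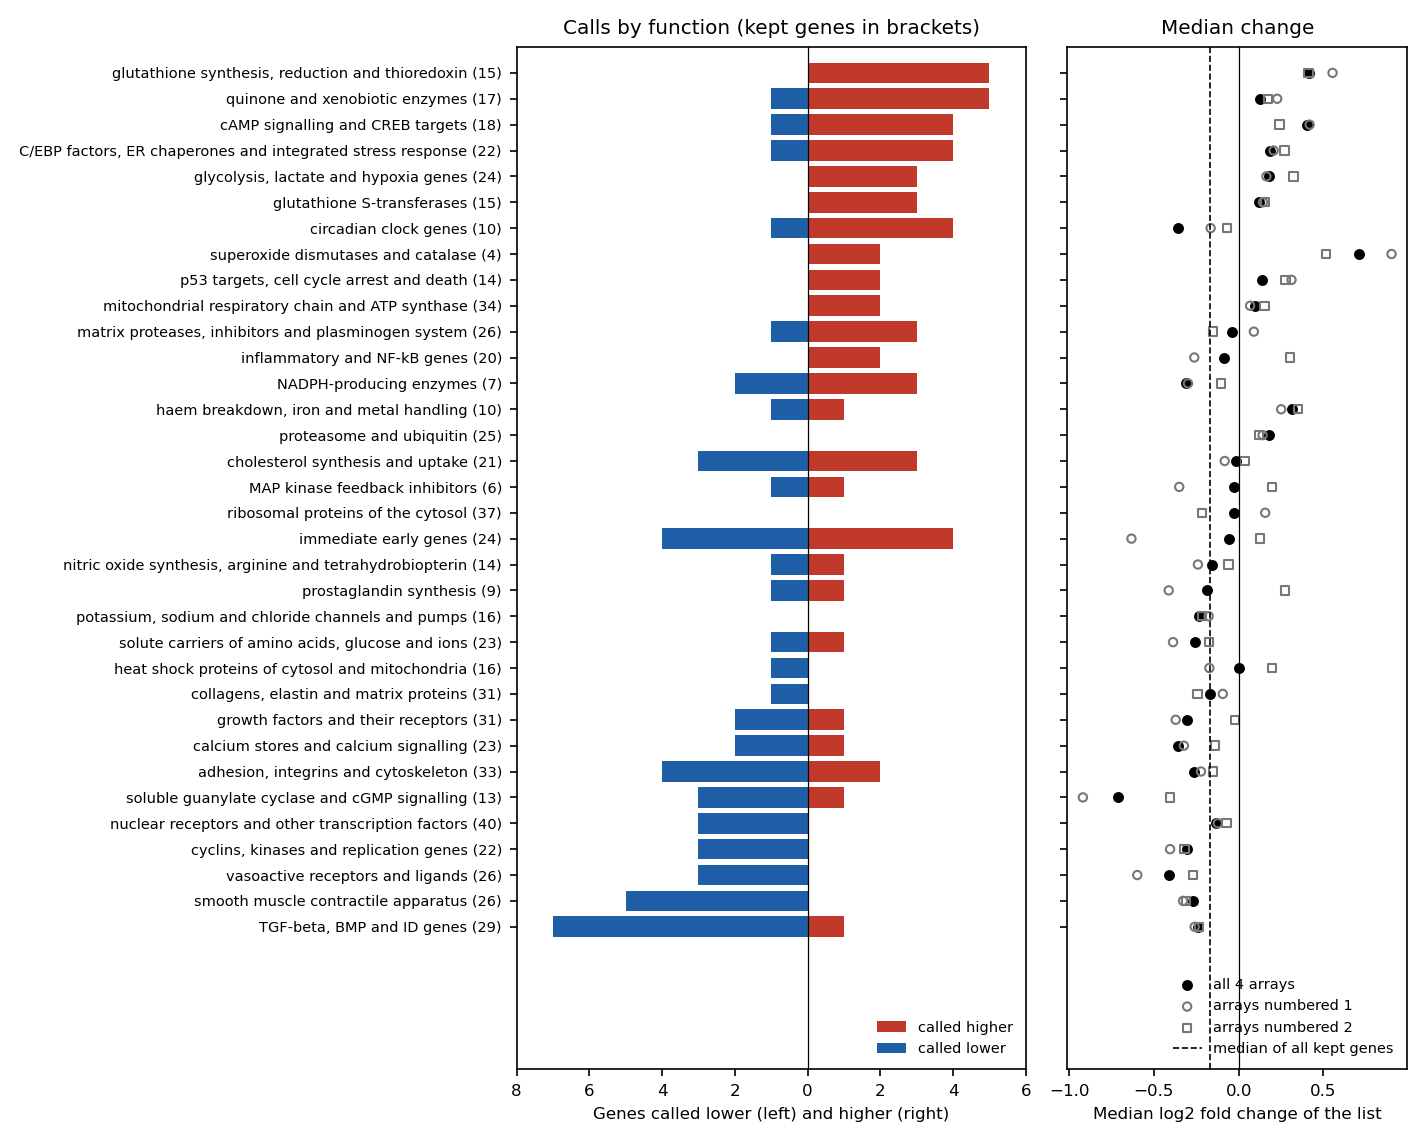
Left, the number of genes called higher (red, right of 0) and lower (blue, left of 0) in each of the 34 lists of functions, with the number of kept genes in brackets. Right, the median log2 fold change of each list over all 4 arrays (black) and between the arrays of the same number (open), beside the median of all kept genes (-0.17, dashed); the glutathione list held 5 rises and 0 falls and the TGF-beta list 1 rise and 7 falls.

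Both subunits of the nitric oxide receptor fell. Gucy1b1, the beta chain of this heterodimeric cyclase, had signals of 3249 and 2273 on the control arrays numbered 1 and 2 and 315 and 253 at 4 h. Its log2 fold change was -3.17 ± 0.17 SE (adjusted p = 3.34e-06), and the groups lay far apart on both arrays. Gucy1a1, the alpha subunit, read 1831 and 3633 and then 108 and 610.2 (log2 fold change -3.19 ± 0.29 SE, adjusted p = 0.000133). Here the arrays numbered 2 were higher than those numbered 1 in both groups, and each fell within its number. Npr3, the clearance receptor for natriuretic peptides, read 2233 and 2961 and then 897 and 1158 (log2 fold change -1.32, adjusted p = 0.00343), and its other called probe set gave a log2 fold change of -1.76. Pde3b, a phosphodiesterase that cGMP inhibits, was the member that rose, from 120.3 and 157 to 222 and 509 (log2 fold change 1.18, adjusted p = 0.0327). In all, 1 of 13 kept genes of guanylate cyclase and cGMP signalling rose and 3 fell, with a median of -0.71 for the list. Prkg1, the gene for cGMP-dependent protein kinase I, was not analysed here. The calls of Gucy1b1, Gucy1a1 and Npr3 at -1.32 were stable. Npr3 at -1.76 lost its call without control 1 (adjusted p = 0.101) and Pde3b without any of 5 arrays (up to 0.286).

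Genes of cAMP signalling and CREB targets held 4 rises and 1 fall among 18 kept genes, with a list median of 0.40. Crem encodes the modulator of the cAMP response element, and its short product ICER, made from an internal promoter, represses that element. All 3 kept Crem probe sets rose: the brightest read 278 and 239.9 in control and 5811 and 5189 at 4 h (log2 fold change 4.30 ± 0.18 SE, adjusted p = 1.33e-06), and the others gave a log2 fold change of 6.06 and 3.40. The probe set with the largest rise had control signals under the 40th percentile of either array (10.7 and 38.5), so its fold rests on weak control signal. Pde4b, a phosphodiesterase that degrades cAMP, read 122 and 125 and then 998 and 913 (log2 fold change 2.76, adjusted p = 3.01e-05). Of its other probe sets, 2 rose and 1 was not called (signals of 109.9 and 69.3, then 108 and 80.3). The orphan nuclear receptor genes Nr4a1 and Nr4a3 rose by 2.30 and 3.70 on the log2 scale. Nr4a3 read 130.1 and 28.6 in control and 971 and 1256 at 4 h, while its other probe set read 219 and 183 and then 53.1 and 157 and was not called. Nr4a2 had 1 called probe set, which rose by 1.83 on the log2 scale from 19.7 and 79.5, and 1 that was not called. Prkacb, a catalytic subunit of the cAMP-dependent kinase, was the fall (log2 fold change -0.78). The calls of Crem (all 3 called probe sets), Pde4b at 2.76 and Nr4a3 were stable. Pde4b at 1.56 lost its call without control 1 or 4 h 1 (adjusted p up to 0.111), Pde4b at 1.87 without control 1 (0.0854), Nr4a1 at 2.30 without 4 h 2 (0.0536), Nr4a1 at 1.81 without any of 5 arrays (up to 0.259) and Nr4a2 without any of 4 arrays (up to 0.238). Prkacb lost its call without any of 5 arrays (up to 0.203). Prkacb was not called with a common median and Nr4a1 at 1.81 was not called after quantile normalization.

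The cAMP response element, in its full form TGACGTCA, was searched on both strands in the 250 bases before the starts that RefSeq gives for assembly GRCr8. A promoter was at hand for 131 of the 156 genes called higher, with 150 starts, and 3 of these genes held the element: Crem, Il6 and Dusp1. Stretches are printed only for genes called higher, so that these 3 stand among the rises follows from the choice. The element is in capitals, with 20 bases on each side. Crem has 3 starts in the table and the element before 2 of them, at 56 to 49 and 35 to 28 bases before the start (plus strand, chr17:58984721-58984768 and chr17:58985435-58985482). In Il6 it lies 162 to 155 bases before the start (minus strand, chr4:5894710-5894757), and in Dusp1, a phosphatase that switches off MAP kinases, 124 to 117 bases before it (plus strand, chr10:17184709-17184756).
Crem, first stretch: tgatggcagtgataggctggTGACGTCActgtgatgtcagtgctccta
Crem, second stretch: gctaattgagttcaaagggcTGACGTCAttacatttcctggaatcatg
Il6: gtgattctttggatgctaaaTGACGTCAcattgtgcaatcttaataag
Dusp1: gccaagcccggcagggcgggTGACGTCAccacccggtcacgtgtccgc
The element stood in 4 of the 150 promoters of genes called higher (2.67%), in 3 of 148 of those called lower (2.03%) and in 81 of 3095 of all kept genes (2.62%), so its share among the rises was near that of all kept genes. Dusp1 rose in 2 of its 3 kept probe sets, by 0.92 on the log2 scale from 1040.4 and 755 to 2295 and 1251 and by 0.89 on the log2 scale. Dusp1 at 0.89 lost its call without any of 5 arrays (adjusted p up to 0.22) and Dusp1 at 0.92 without control 1 or 4 h 1 (up to 0.125).

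Among 15 kept glutathione and thioredoxin genes, 5 rose and 0 fell, with a median of 0.41. Gclc, which encodes the catalytic chain of glutamate-cysteine ligase, the limiting step of glutathione synthesis, read 108 and 167 in control and 2838 and 4084 at 4 h (log2 fold change 4.46 ± 0.21 SE, adjusted p = 1.66e-06). Gclm, its modifier subunit, read 153 and 177 and then 635 and 1080.5 (log2 fold change 2.20, adjusted p = 0.00708), with a second called probe set (log2 fold change 1.69) and another that was not called (149 and 148, then 198 and 1005). Both subunits of the ligase were thus higher on every 4 h array than on any control array. Gsr, glutathione reductase, rose in 3 probe sets by 1.00, 1.62 and 3.09 on the log2 scale. Txnrd1, the cytosolic thioredoxin reductase, read 724 and 1058 and then 2913 and 5298 (log2 fold change 2.14 ± 0.17 SE, adjusted p = 5e-05), and its other probe set gave a log2 fold change of 1.38. Gpx4, the peroxidase for lipid hydroperoxides, rose from 2039 and 2002 to 3442 and 4458 (log2 fold change 0.95, adjusted p = 0.00701). Nfe2l2, which encodes NRF2 itself, was not called, with signals of 536 and 882 in control and 609.9 and 826 at 4 h, where the signals of the groups overlapped. The calls of Gclc and Txnrd1 (both called probe sets) were stable. Gclm at 2.20 lost its call without control 1 (adjusted p = 0.0991), Gclm at 1.69 without control 1 or 2 or 4 h 2 (up to 0.195), Gsr at 1.00 without control 1 or 2 or 4 h 2 (up to 0.187), Gsr at 1.62 without control 2 or 4 h 2 (up to 0.118) and Gsr at 3.09 without control 1 or 2 (up to 0.125). Gpx4 lost its call without control 2 (0.078).

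The core of the antioxidant response element, TGACNNNGC on either strand, is short and common. It stood in 23 of the 150 promoters of genes called higher (15.3%), in 18 of 148 of those called lower (12.2%) and in 409 of 3095 of all kept genes (13.2%). The first 3 rises by size that held it were Crem, Cebpb and Pde4b, and Gclm and Txnrd1 are added for their role in glutathione and thioredoxin metabolism, chosen after the matches were seen. The core is in capitals and is read on the opposite strand in Gclm and Txnrd1. It lies 89 to 81 bases before the same Crem start as the first stretch above (chr17:58984688-58984736), 61 to 53 before Cebpb (chr3:176816924-176816972), 176 to 168 before 1 of the 2 Pde4b starts (chr5:122222377-122222425) and 172 to 164 before Gclm (chr2:213031943-213031991), all on the plus strand. It lies 78 to 70 bases before 1 of the 2 Txnrd1 starts on the minus strand (chr7:22755954-22756002).
Crem: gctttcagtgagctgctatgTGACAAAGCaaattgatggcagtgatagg
Cebpb: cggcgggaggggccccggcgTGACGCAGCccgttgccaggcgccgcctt
Pde4b: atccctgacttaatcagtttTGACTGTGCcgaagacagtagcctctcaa
Gclm: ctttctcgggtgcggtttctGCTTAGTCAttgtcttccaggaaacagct
Txnrd1: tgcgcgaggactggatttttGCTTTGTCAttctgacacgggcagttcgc
The same search found the AP-1 site TGAGTCA in 4.0% of the promoters of genes called higher, 6.08% of those called lower and 3.46% of all kept genes. The E-box CACGTG stood in 6.67%, 10.8% and 8.4%, and the core GCGTG of the xenobiotic response element in 56.7%, 42.6% and 43.0%. Over all 33469 promoters of the table the shares were 1.59% for the cAMP response element, 10.1% for the antioxidant core, 4.05% for the AP-1 site, 5.59% for the E-box and 25.9% for the xenobiotic core. No test was run on these shares.

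Haem breakdown, quinone reduction and xenobiotic metabolism held several of the largest rises. Hmox1, the inducible haem oxygenase, read 454 and 649 in control and 17472 and 11324 at 4 h (log2 fold change 4.64 ± 0.29 SE, adjusted p = 1.06e-05), and its other probe set gave a log2 fold change of 4.71. It was the 1 rise among 10 kept genes of haem, iron and metal handling (2 with a common median), beside a fall of Aco1, the iron-sensing cytosolic aconitase (2018 and 2076, then 841 and 1067, log2 fold change -1.09). The constitutive Hmox2 was not called (164 and 287 in control, 197 and 287 at 4 h). Nqo1, a quinone reductase, read 271 and 391 and then 10284 and 6713 (log2 fold change 4.59 ± 0.27 SE, adjusted p = 6.77e-06). Cyp1b1, a cytochrome P450 known as a target of the aryl hydrocarbon receptor, rose in all 4 kept probe sets, by 3.02 to 4.32 on the log2 scale, and the brightest read 588 and 554 and then 11599 and 8753. Cbr1, a carbonyl reductase, read 1105 and 1009 and then 7737 and 2413 (log2 fold change 2.01), with the 4 h arrays far from each other. Por, which passes electrons to cytochromes P450, rose in all 3 probe sets, by 1.36 to 2.03 on the log2 scale, and Ephx1, the microsomal epoxide hydrolase, by 0.84 on the log2 scale. Sult1a1, a sulfotransferase, fell (log2 fold change -0.82, adjusted p = 0.0431). The xenobiotic list thus held 5 rises and 1 fall among 17 kept genes (median 0.12). The calls of Hmox1 (both called probe sets), Nqo1 (both called probe sets), Cyp1b1 (all 4 called probe sets), Por at 1.36 and Por at 2.03 were stable, and Cbr1 at 2.01 stayed called without each array in turn but not with the recorded experiment as the block. Aco1 lost its call without control 1 (adjusted p = 0.0509), Cbr1 at 1.58 without control 1 or 4 h 1 (up to 0.0568), Por at 1.38 without control 2 (0.0983), Ephx1 without control 1 or 2 or 4 h 2 (up to 0.0991) and Sult1a1 without any of 7 arrays (up to 0.278). Aco1 was not called with a common median, Sult1a1 was not called under either other scaling, and the groups' signals overlapped for Ephx1.

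Among 15 kept glutathione S-transferases, which couple glutathione to electrophiles, 3 rose and 0 fell (median 0.12). Gstp1 read 2508 and 4594 in control and 17455 and 10300.3 at 4 h (log2 fold change 1.98) and Gstm1 read 477 and 956 and then 1774 and 2241 (log2 fold change 1.53). The Gsta1 probe sets are of the kind that other family members can share, and their controls differed by array number (166 and 2409.5 in control, 3447 and 4818 at 4 h, log2 fold change 2.60), so the rise is uncertain as to the gene. Superoxide dismutases and catalase, which remove superoxide and peroxide, held 2 rises and 0 falls among 4 kept genes (median 0.71). Sod2, the mitochondrial superoxide dismutase, rose from 192 and 158 to 786 and 576 (log2 fold change 1.83 ± 0.26 SE, adjusted p = 0.00187) and Sod3, the extracellular form, from 2827 and 3929.5 to 6497 and 6672 (log2 fold change 0.98). The cytosolic Sod1 was not called (3409 and 3761, then 5210.4 and 4549), and neither was catalase. Enzymes that make NADPH, the electron source of both reductases above, were divided: 3 of 7 kept genes rose and 2 fell. Taldo1 and Tkt, of the pentose phosphate pathway, rose by 1.35 and 0.89 on the log2 scale, and Me1, malic enzyme, by 1.05 on the log2 scale, 1 of its 4 called probe sets. Idh1, the cytosolic isocitrate dehydrogenase, read 2386 and 2092 and then 1238 and 1457 (log2 fold change -0.73), and Nnt, the mitochondrial transhydrogenase, 1683 and 1934 and then 1116 and 1168 (log2 fold change -0.65).  The calls of Gstm1 at 1.53, Sod2 and Taldo1 were stable. Gstp1 at 1.54 lost its call without control 1 or 4 h 1 (adjusted p up to 0.252), Gstp1 at 1.98 without control 1 (0.102), Gstm1 at 0.99 without control 1 or 2 or 4 h 1 (up to 0.205), Gstm1 at 1.95 without control 1 (0.0602) and Gsta1 at 2.60 without any of 4 arrays (up to 0.248). Gsta1 at 2.16 lost its call without control 1 or 4 h 1 (up to 0.171), Gsta1 at 2.12 without any of 4 arrays (up to 0.303), Sod3 at 0.98 without control 1 or 2 or 4 h 1 (up to 0.128), Sod3 at 1.16 without control 1 or 2 (up to 0.119) and Tkt without control 1 or 4 h 1 (up to 0.197). Me1 at 0.97 lost its call without any of 6 arrays (up to 0.283), Me1 at 0.88 without control 1 or 2 or 4 h 2 (up to 0.142), Me1 at 0.99 without control 1 or 2 or 4 h 2 (up to 0.167), Me1 at 1.05 without control 1 or 2 or 4 h 1 (up to 0.101) and Idh1 without any of 5 arrays (up to 0.23). Nnt lost its call without any of 8 arrays (up to 0.215). Idh1 and Nnt were not called with a common median and Me1 at 0.97 was not called after quantile normalization.

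Genes of nitric oxide synthesis, arginine and tetrahydrobiopterin held 1 rise and 1 fall among 14 kept genes (median -0.16). Azin1, which inhibits the antizyme of polyamine synthesis, rose from 292 and 331 to 782 and 803 (log2 fold change 1.29, adjusted p = 0.00388). Ddah1, which degrades inhibitors of nitric oxide synthases, fell from 2048 and 1196 to 1390.0 and 666 (log2 fold change -0.69, adjusted p = 0.0395). The inducible synthase Nos2 was not called, with signals of 225 and 239 in control and 262 and 466 at 4 h. Outside the list, Gchfr, the feedback regulator of GTP cyclohydrolase, rose from 53.5 and 62.4 to 318 and 402 (log2 fold change 2.26 ± 0.29 SE, adjusted p = 0.000961); it was chosen after its values were seen. The calls of Azin1 and Gchfr were stable. Ddah1 lost its call without any of 8 arrays (adjusted p up to 0.211). Ddah1 was not called under either other scaling and the groups' signals overlapped for Ddah1.

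Immediate early genes were divided at 4 h, with 4 rises and 4 falls among 24 kept genes (median -0.06). Klf4, a zinc finger factor known for repressing smooth muscle genes, was among the largest rises, with signals of 244 and 110.5 in control and 6107 and 5494 at 4 h (log2 fold change 4.96 ± 0.22 SE, adjusted p = 1.33e-06), and its other probe set gave a log2 fold change of 5.33. Klf10, a factor induced by TGF-beta, rose in all 3 probe sets by 2.86 to 3.01 on the log2 scale, and Ier3, a survival gene, by 2.48 on the log2 scale from 883 and 482 to 3093 and 4551. Egr1, the early growth response factor, went the other way, from 4446 and 2257 to 811 and 805 (log2 fold change -1.94 ± 0.26 SE, adjusted p = 0.00155). It fell in 3 of its 4 probe sets. Klf6 fell from 809 and 803 to 281 and 195 (log2 fold change -1.69) and Ccn1, a secreted matrix-associated protein, from 588 and 126 to 150.2 and 36.4 (log2 fold change -1.59). Junb, an AP-1 subunit, rose (log2 fold change 0.98) and Btg1, an inhibitor of proliferation, fell from 9335 and 8474 to 3334 and 3246 (log2 fold change -1.43). Fos, the classical member, was not called (655 and 442, then 465 and 562), and Jun was called in 1 of 4 probe sets (log2 fold change 1.30). The calls of Klf4 (both called probe sets), Klf10 at 2.95, Ier3 (both called probe sets), Egr1 at -2.68 and Btg1 (both called probe sets) were stable. So was the Egr1 probe set at -1.94 whose signals are given above. Klf10 at 2.86 stayed called without each array in turn but not with the recorded experiment as the block. Another Egr1 probe set, which also gave -1.94, lost its call without control 1 (adjusted p = 0.158). Klf10 at 3.01 lost its call without control 2 (0.0658), Klf6 without control 1 or 2 or 4 h 2 (up to 0.186), Ccn1 without control 1 or 4 h 1 (up to 0.242) and Junb without any of 4 arrays (up to 0.341). Jun lost its call without any of 7 arrays (up to 0.336). Klf6 was not called under either other scaling and the groups' signals overlapped for Ccn1.

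Of 6 kept feedback inhibitors of MAP kinase signalling, 1 rose and 1 fell by the brightest probe set. Errfi1, an inhibitor of the EGF receptor, read 148 and 282 and then 947 and 1111 (log2 fold change 2.21 ± 0.21 SE, adjusted p = 0.000205), and Spry1, which dampens growth factor receptors, read 774 and 659 and then 120.0 and 243 (log2 fold change -1.93). Dusp6, a phosphatase for ERK, fell in 1 probe set from 219 and 182 to 9.28 and 18.1 (log2 fold change -2.68), where both 4 h signals were under the array's 40th percentile. Its brighter probe set read 240.2 and 322 and then 62.4 and 82.8 and was not called. The call of Errfi1 (both called probe sets) was stable. Spry1 lost its call without control 1 (adjusted p = 0.0559) and Dusp6 without control 1 or 2 (up to 0.0991).

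C/EBP and integrated stress response genes held 4 rises and 1 fall among 22 kept genes (median 0.19). Cebpb, a leucine zipper factor, rose from 884 and 966 to 4133 and 4459.6 (log2 fold change 2.19 ± 0.18 SE, adjusted p = 6.66e-05). Gdf15, a stress cytokine, rose by 2.12 on the log2 scale from signals below the 40th percentile, 20.2 and 23. Trib3, a pseudokinase induced by ER stress, rose in 1 of 2 probe sets (log2 fold change 1.49) and Eif2ak3, the ER stress kinase PERK, in 1 of 2 (log2 fold change 1.10). Vldlr, a lipoprotein receptor, was the fall (log2 fold change -0.79). The factor Ddit3 was not called, with 198 and 267 in control and 674 and 356 at 4 h, and neither was the chaperone Hspa5 (2656 and 1566, then 3387 and 2899). Heat shock proteins held 0 rises and 1 fall among 16 kept genes, Dnaja1, a co-chaperone (2217 and 3173, then 1317 and 549.5, log2 fold change -1.61). The call of Cebpb (both called probe sets) was stable. Gdf15 lost its call without control 1 (adjusted p = 0.0618), Trib3 without control 1 or 2 or 4 h 1 (up to 0.0967), Eif2ak3 without any of 5 arrays (up to 0.217), Vldlr without any of 5 arrays (up to 0.194) and Dnaja1 without any of 5 arrays (up to 0.257). Vldlr was not called with a common median and Dnaja1 was not called under either other scaling.

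Among 14 kept genes of p53 targets, arrest and death, 2 rose and 0 fell (median 0.14). Cdkn1a, the cyclin-dependent kinase inhibitor p21, rose from 568 and 299 to 1183 and 1202 (log2 fold change 1.48 ± 0.24 SE, adjusted p = 0.0048), and its other probe set gave a log2 fold change of 1.83. Tnfrsf1a, the main TNF receptor, rose by 1.47 on the log2 scale. Bcl2l11, which encodes the death activator BIM, was called as higher in 3 probe sets but not in the brightest (262 and 193, then 488 and 347), and Bcl2l1, a survival gene, was called as lower in 1 of 3. Mdm2 was not called (601 and 1077, then 801 and 1753). Of 22 kept genes of the cell cycle and replication, 0 rose and 3 fell (median -0.30): Top2a, a topoisomerase (log2 fold change -1.65), Mcm7, of the replicative helicase (806 and 1076, then 486 and 499, log2 fold change -0.89), and Stmn1, a microtubule regulator (log2 fold change -0.82). Ccnd1 (729 and 2712, then 741 and 1928) and Pcna (2363 and 1423, then 2120.3 and 2194) were not called. The call of Tnfrsf1a was stable. Cdkn1a at 1.48 lost its call without control 2 (adjusted p = 0.0557), Cdkn1a at 1.83 without control 2 (0.055), Bcl2l11 at 1.19 without any of 8 arrays (up to 0.377), Bcl2l11 at 1.40 without any of 7 arrays (up to 0.351) and Bcl2l11 at 1.89 without any of 4 arrays (up to 0.184). Bcl2l1 lost its call without any of 6 arrays (up to 0.378), Top2a without control 1 or 2 or 4 h 2 (up to 0.182), Mcm7 without any of 4 arrays (up to 0.197) and Stmn1 without any of 7 arrays (up to 0.236). Top2a and Mcm7 were not called with a common median, Bcl2l1 and Stmn1 were not called under either other scaling, and the groups' signals overlapped for Top2a.

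Inflammatory genes held 2 rises (4 with a common median) and 0 falls among 20 kept genes, with a median of -0.09 that turned to 0.12 with a common median and 0.09 after quantile normalization. Il6, the cytokine, read 26.6 and 15.8 in control, below the 40th percentile, and 669 and 1057 at 4 h (log2 fold change 4.36 ± 0.39 SE, adjusted p = 0.000105), and its other probe set gave a log2 fold change of 3.76. Nfkb1, a subunit of NF-kB, rose from 870.2 and 967 to 1875 and 2402 (log2 fold change 1.19). Neither the chemokine Ccl2 nor the NF-kB inhibitor Nfkbia was called. In prostaglandin synthesis, 1 of 9 kept genes rose, Ptgis, the prostacyclin synthase (2932 and 2872, then 6074 and 4799, log2 fold change 0.89), and 1 fell, Ptgs2, the inducible cyclooxygenase (315 and 168, then 92.2 and 50.6, log2 fold change -1.48). The call of Il6 (both called probe sets) was stable, and Nfkb1 stayed called without each array in turn but not with the recorded experiment as the block. Ptgis lost its call without control 1 or 2 or 4 h 1 (adjusted p up to 0.102) and Ptgs2 without any of 5 arrays (up to 0.333). Ptgs2 was not called under either other scaling.

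Of 26 kept proteases, inhibitors and regulators of coagulation and complement, 3 rose and 1 fell (median -0.04, 0.17 with a common median). Plat, tissue plasminogen activator, rose from 1504 and 952 to 8150.3 and 5474 (log2 fold change 2.46 ± 0.18 SE, adjusted p = 3.65e-05). Thbd, thrombomodulin, rose by 1.18 and 2.59 on the log2 scale in its 2 probe sets, the latter from 108 and 247 to 695 and 1739. Cd55, which dismantles complement convertases, rose by 3.14 ± 0.34 SE on the log2 scale from control signals below the 40th percentile (21.5 and 65.6) to 437 and 605, and its dimmer probe set was not called. Tnfrsf11b, which encodes the decoy receptor osteoprotegerin, fell from 4974 and 3732 to 522 and 584 (log2 fold change -2.92 ± 0.21 SE, adjusted p = 2.92e-05). Mmp2, a gelatinase, was not called (2961 and 7015, then 3709 and 5827). The calls of Plat, Thbd at 2.59, Cd55 and Tnfrsf11b were stable. Thbd at 1.18 lost its call without control 2 or 4 h 2 (adjusted p up to 0.198).

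Ligands and receptors that set vascular tone held 0 rises and 3 falls among 26 kept genes (median -0.41). Edn1, the precursor of the constrictor endothelin-1, read 1866 and 1056 in control and 243 and 67.7 at 4 h (log2 fold change -3.22 ± 0.39 SE, adjusted p = 0.000709). Agtr1a, the angiotensin II receptor, fell in all 4 probe sets (log2 fold changes from -1.35 to -1.59). The brightest read 4022 and 1641 and then 1388 and 641, with the arrays numbered 1 above those numbered 2. A probe set of its near-copy Agtr1b also fell, and which of the 2 genes gave that signal is uncertain. P2ry6, a receptor for uridine nucleotides, read 608 and 588 and then 155 and 114 (log2 fold change -2.0, adjusted p = 0.00104). The endothelin receptor gene Ednra was not analysed here. The calls of Edn1, Agtr1a at -1.42, Agtr1a at -1.59 and P2ry6 were stable. Agtr1a at -1.35 lost its call without control 1 (adjusted p = 0.0555), Agtr1a at -1.58 without control 1 (0.0578) and Agtr1b without any of 6 arrays (up to 0.399). Agtr1b was not called under either other scaling.

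Smooth muscle actin and calponin were not called, while several partners of the contractile apparatus fell. Acta2, the actin, read 23826 and 12757 and then 18548 and 11351 in its brightest probe set, and Cnn1, the calponin, read 2732 and 2732 and then 3996 and 2726. Of 26 kept contractile genes, 0 rose and 5 fell by the brightest probe set (median -0.27), which became 2 falls with a common median. Counting any called probe set, 7 genes of the list fell. Probe sets of the tropomyosin Tpm1 and the myosin light chain Myl12b were called as lower, and neither call was stable. Sorbs2, an adaptor of actin and adhesion sites, fell from 604 and 641 to 55.9 and 127 (log2 fold change -2.59 ± 0.30 SE, adjusted p = 0.000513), and Rock2, a kinase that keeps myosin phosphorylated, fell in both probe sets (log2 fold changes of -1.83 and -1.15). Myh11, smooth muscle myosin, read 3199 and 5037 and then 2310.0 and 3014 (log2 fold change -0.60, adjusted p = 0.0434), and its other 2 probe sets were not called. Actn4, an actin cross-linker, fell (log2 fold change -0.98), and so did Csrp2, a LIM protein of smooth muscle (log2 fold change -0.76), whose arrays numbered 1 were far above those numbered 2. Of calcium genes, 1 of 23 rose and 2 fell. Pln, phospholamban, the brake of the calcium pump, read 1560.2 and 705 and then 149.7 and 101 (log2 fold change -2.89 ± 0.24 SE, adjusted p = 7.44e-05), and Itpr1, a calcium release channel, 853 and 1201 and then 327 and 586 in 1 of 4 probe sets (log2 fold change -1.17). Ppp3ca, the catalytic subunit of calcineurin, was the rise (log2 fold change 0.87), and the pump gene Atp2a2 itself was not called (2424 and 2996, then 2020.3 and 2745). The calls of Sorbs2 at -2.59 and Pln were stable. Sorbs2 at -1.90 lost its call without any of 5 arrays (adjusted p up to 0.319), Rock2 at -1.83 without control 1 (0.126), Rock2 at -1.15 without control 1 or 2 or 4 h 1 (up to 0.202), Myh11 without any of 7 arrays (up to 0.223) and Actn4 without control 1 or 2 or 4 h 1 (up to 0.146). Csrp2 lost its call without any of 7 arrays (up to 0.186), Itpr1 without control 1 (0.0566) and Ppp3ca without any of 8 arrays (up to 0.331). Myh11, Actn4 and Csrp2 were not called with a common median, Sorbs2 at -1.90 was not called after quantile normalization, and the groups' signals overlapped for Csrp2.

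Adhesion and cytoskeleton genes held 2 rises and 4 falls among 33 kept genes (median -0.26). Sdc4, a cell surface proteoglycan of focal adhesions, rose by 1.17 and 1.89 on the log2 scale, and Ezr, which links membrane and actin, by 1.26 on the log2 scale. Nexn, an actin-binding protein, fell from 1574 and 1633 to 149 and 402 (log2 fold change -2.60 ± 0.28 SE, adjusted p = 0.000384). Ptk2, focal adhesion kinase, fell from 2265 and 2173 to 569 and 857 (log2 fold change -1.64, adjusted p = 0.00142), and so did Itga1, an integrin for collagen (log2 fold change -0.69), and Prx, periaxin (log2 fold change -1.20). The integrin gene Itgb1 was not called (6758 and 5095, then 6406 and 5767). Potassium, sodium and chloride channels and pumps held 0 calls among 16 kept genes by limma, although a second probe set of Kcnd3 was called as lower (log2 fold change -1.89). The calls of Sdc4 (both called probe sets), Nexn at -2.60 and Ptk2 were stable. Ezr lost its call without any of 5 arrays (adjusted p up to 0.275), Nexn at -1.73 without control 1 or 4 h 1 (up to 0.156), Itga1 without any of 5 arrays (up to 0.189), Prx without any of 4 arrays (up to 0.309) and Kcnd3 without control 1 or 2 or 4 h 2 (up to 0.199). Itga1 was not called with a common median, Kcnd3 was not called after quantile normalization, Prx was not called under either other scaling, and the groups' signals overlapped for Ezr.

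In the list of TGF-beta, BMP and ID genes, 7 of 29 kept genes were lower and 1 was higher (median -0.24). With a common median, 5 fell and 2 rose. Among the ligands, Tgfb1 rose from 683 and 451 to 1631 and 1323 (log2 fold change 1.37 ± 0.22 SE, adjusted p = 0.00434) while Tgfb3 fell from 6770.2 and 3037 to 1112 and 1052 (log2 fold change -2.05 ± 0.23 SE, adjusted p = 0.000497), so the isoforms went opposite ways on every array pair. Bmp4 read 773 and 766 and then 171 and 167 (log2 fold change -2.05), and Bmp3 fell in both probe sets, from 734 and 1166 to 62.9 and 244 in the first (log2 fold change -2.67). Acvrl1, the receptor ALK1, fell by 1.17 on the log2 scale (adjusted p = 0.0366). Tgfb2 fell (log2 fold change -0.97), as did Id3, an inhibitor of helix-loop-helix factors (log2 fold change -0.87), and Lbh, given above. The calls of Tgfb3 (both called probe sets), Bmp3 at -2.67 and Lbh were stable. Tgfb1 lost its call without control 2 (adjusted p = 0.0511), Bmp4 without control 1 (0.101), Bmp3 at -2.31 without control 1 (0.0588), Acvrl1 without any of 5 arrays (up to 0.222) and Tgfb2 without any of 5 arrays (up to 0.215). Id3 lost its call without control 1 or 2 or 4 h 2 (up to 0.113). Id3 was not called with a common median, Acvrl1 was not called after quantile normalization, and Tgfb2 was not called under either other scaling.

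Growth factor genes held 1 rise and 2 falls among 31 kept genes (median -0.31), or 2 rises and 1 fall with a common median. Fgfr1, a fibroblast growth factor receptor, rose from 749.9 and 844 to 3602 and 3814 (log2 fold change 2.19 ± 0.17 SE, adjusted p = 5.46e-05) and by 2.87 on the log2 scale in another probe set, while a dim probe set was not called. Bdnf, a neurotrophin, fell in 4 of 6 probe sets (log2 fold changes from -1.18 to -2.46), and Nrg1, a ligand of ERBB receptors, fell from 574 and 865 to 125 and 204 in 1 of its 4 (log2 fold change -2.0). Vegfa, a growth factor of vessels, was not called in any of 4 probe sets, 1 of which read 308 and 387 and then 449.9 and 1254. Collagens, elastin and other matrix genes held 0 rises and 1 fall among 31 kept genes, Dcn, the proteoglycan decorin, which fell from 170.4 and 199.9 to 16 and 18.5 (log2 fold change -2.42) in 1 of 2 kept probe sets. Both 4 h signals of Dcn were under the array's 40th percentile. The log2 fold change of this probe set against control was -2.30 at 1 h and 0.37 at 2 h. Col1a1 and Eln, elastin, were not called (26402 and 15543, then 30686 and 11907 for Eln). The calls of Fgfr1 (both called probe sets), Bdnf at -2.46 and Nrg1 were stable. Bdnf at -1.18 lost its call without control 1 (adjusted p = 0.146), Bdnf at -1.50 without control 1 or 4 h 2 (up to 0.146), Bdnf at -2.21 without control 1 (0.178) and Dcn without control 1 (0.0865). Bdnf at -1.18 was not called with a common median.

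Of 24 kept glycolysis and hypoxia genes, 3 rose and 0 fell by the brightest probe set (median 0.18), and all 3 are transporters. Counting any called probe set, 5 genes of the list rose. A probe set of the glycolytic enzyme Eno1 was called as higher, and that call was not stable. Slc16a1 and Slc16a3 carry lactate and rose from 315 and 459.9 to 2017 and 3283 (log2 fold change 2.69 ± 0.18 SE, adjusted p = 2.22e-05) and from 217 and 253 to 692 and 852 (log2 fold change 1.63). Slc2a1, the basal glucose transporter, rose from 584 and 378 to 1304 and 2113 (log2 fold change 1.78). Hk2, an inducible hexokinase, rose by 4.55 ± 0.62 SE on the log2 scale in a probe set whose control signals were below the 40th percentile (65.1 and 10.03), but its brighter probe set was not called (375 and 489, then 511 and 1699.8). Respiratory chain and ATP synthase genes held 2 rises and 0 falls among 34 kept genes: Ndufa5, of complex I (1779.7 and 1079, then 4535 and 4358, log2 fold change 1.67), and Atp5f1d, of the ATP synthase (log2 fold change 0.78). Limma called 0 of 37 ribosomal protein genes and 0 of 25 proteasome and ubiquitin genes. The calls of Slc16a1 (both called probe sets), Slc16a3, Hk2 and Ndufa5 were stable. Slc2a1 at 1.78 lost its call without control 1 or 2 (adjusted p up to 0.095), Slc2a1 at 1.58 without any of 5 arrays (up to 0.251) and Atp5f1d without any of 4 arrays (up to 0.265).

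Of 10 kept circadian clock genes, 4 rose and 1 fell, with a list median of -0.36. Bmal1, a core activator of the clock, rose from control signals below the 40th percentile, 30.7 and 24.5, to 462 and 375 (log2 fold change 3.17 ± 0.47 SE, adjusted p = 0.00268), and its other probe set gave a log2 fold change of 2.27. Bhlhe40, a repressor of clock genes, read 199 and 228 and then 501 and 530.3 (log2 fold change 1.20), and Per2, a repressor of BMAL1, rose by 0.89 on the log2 scale (adjusted p = 0.0469). Csnk1d, a kinase of PER proteins, rose by 0.71 on the log2 scale, and Nr1d2, a nuclear receptor that represses Bmal1, fell from 216 and 643 to 94.6 and 219 (log2 fold change -1.25). Within each array number Nr1d2 was lower at 4 h. Bmal1 at 3.17 stayed called without each array in turn but not with the recorded experiment as the block. Bmal1 at 2.27 lost its call without control 1 or 2 or 4 h 1 (adjusted p up to 0.12), Bhlhe40 without control 1 or 4 h 2 (up to 0.226), Per2 without any of 8 arrays (up to 0.278), Csnk1d without any of 6 arrays (up to 0.267) and Nr1d2 without control 2 (0.165). The groups' signals overlapped for Per2 and Nr1d2.

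The list of cholesterol synthesis and uptake, which includes regulators and a fatty acid enzyme, held 3 rises and 3 falls among 21 kept genes (median -0.01). The synthesis enzymes Sqle, Msmo1 and Fdft1 fell (log2 fold changes of -1.34, -1.34 and -1.04, Fdft1 in 1 of 4 probe sets), with Msmo1 at 1653 and 1297 in control and 598 and 533 at 4 h (adjusted p = 0.00167). Insig1, which holds the sterol sensor in the ER, rose from 447 and 442 to 1125 and 1507 (log2 fold change 1.51, adjusted p = 0.00299). Srebf1, a factor for lipid synthesis, rose by 1.55 on the log2 scale and Scd, a fatty acid desaturase, by 1.74 on the log2 scale. Of 23 kept solute carriers, 1 rose, Slc3a2, the heavy chain of amino acid transporters (log2 fold change 0.69), and 1 fell, Slc6a6, the taurine transporter (log2 fold change -1.14). Among 40 kept nuclear receptors and other factors, 0 rose and 3 fell by the brightest probe set: Ets1 (515 and 529.6, then 111 and 188, log2 fold change -1.71), the thyroid hormone receptor Thrb (log2 fold change -1.94) and Nr2f2 (log2 fold change -1.87). In 2 other members a dimmer probe set was called as higher. The call of Msmo1 at -1.34 was stable, and Insig1 at 1.51 stayed called without each array in turn but not with the recorded experiment as the block. Sqle lost its call without control 1 or 4 h 1 (adjusted p up to 0.248), Msmo1 at -1.02 without any of 8 arrays (up to 0.405), Fdft1 without control 1 or 2 or 4 h 1 (up to 0.176), Insig1 at 1.80 without control 2 (0.0759) and Srebf1 without control 1 or 2 or 4 h 1 (up to 0.14). Scd lost its call without control 1 or 2 or 4 h 2 (up to 0.0954), Slc3a2 without any of 6 arrays (up to 0.142), Slc6a6 without control 1 or 2 or 4 h 1 (up to 0.17), Ets1 at -1.71 without control 1 (0.0892) and Ets1 at -1.90 without any of 6 arrays (up to 0.278). Thrb lost its call without control 2 (0.0714) and Nr2f2 without control 1 or 2 or 4 h 1 (up to 0.158). Fdft1 and Slc6a6 were not called with a common median, Msmo1 at -1.02 and Ets1 at -1.90 were not called under either other scaling, and the groups' signals overlapped for Slc6a6.

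Setting 4 h against the earlier exposures, in contrasts that use no control array, asked which levels had moved on. Against 2 h, 32 probe sets differed (0.544%), 12 higher and 20 lower at 4 h, and 27 of them were also called against control. Against 1 h, 300 differed (5.1%), 156 higher and 144 lower, of which 252 were also called against control. Gucy1b1 read 2116 and 1459.9 at 2 h and 315 and 253 at 4 h, and Gucy1a1 read 843 and 2204 and then 108 and 610.2, so both levels dropped further between 2 h and 4 h on each array number. Sod2 read 199 and 239 at 2 h, beside 192 and 158 in control, and 786 and 576 at 4 h. Nqo1 read 550.3 and 182 at 2 h and 3030.4 and 1709.6 at 4 h in its dimmer probe set. Nr4a2 had been higher earlier, with 2653 and 2026 at 1 h, 607 and 2343 at 2 h and 154 and 277 at 4 h. These comparisons share the 4 h arrays with the comparison against control. The 32 calls against 2 h became 1 with the recorded experiment as the block, 11 without 2 h 1, 1 without 2 h 2, 61 without 4 h 1 and 102 without 4 h 2, and the 300 against 1 h became 93 without 1 h 1 and 132 without 1 h 2.

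**Figure D4:**
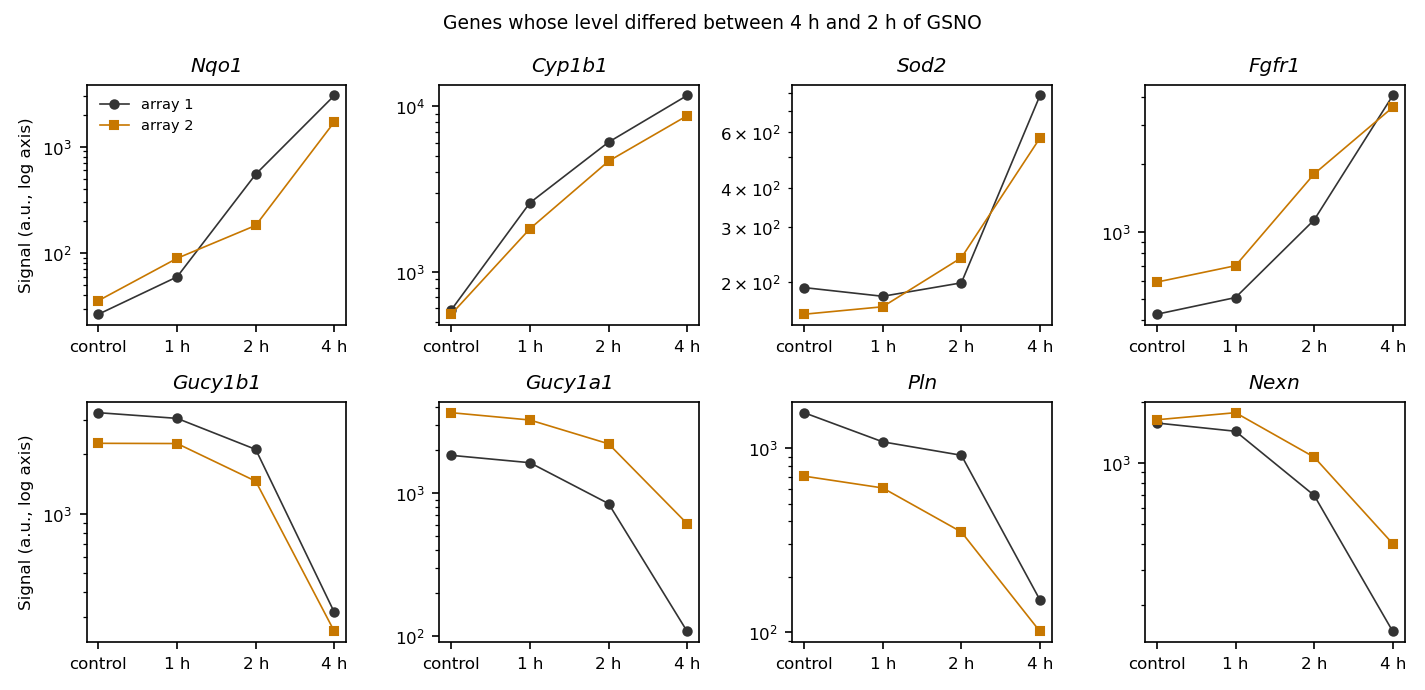
Signal (log axis, arbitrary units) in control and after 1, 2 and 4 h of GSNO for 8 genes called in the comparison of 4 h with 2 h, each by 1 probe set called there, with arrays numbered 1 in black and numbered 2 in orange. Nqo1, Cyp1b1, Sod2 and Fgfr1 were higher at 4 h than at 2 h on both array numbers, and Gucy1b1, Gucy1a1, Pln and Nexn were lower.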

How the data were processed

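The deposited table gives linear intensity signals, which the authors made with the array maker's version 5.0 software from biotin-labelled cRNA, per the series design. The trimmed mean, leaving out 2% at each end, was 500.7 to 501 on the 8 arrays, so the signals were used as deposited. An offset of 21.1 was added before log2. Probe sets whose signal reached the 40th percentile of 2 or more arrays were kept, 5877 of 8740, and 59 control features were left out. Genes were named from the platform annotation.

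Tests used limma 3.58.1 in R 4.3.3 on all 8 arrays, with group and array number as terms (3 residual degrees of freedom), eBayes with a trend, two-sided p-values and Benjamini-Hochberg adjustment over all kept probe sets at 0.05. The deviations of arrays with the same number correlated above the minimum of 0.1 in all pairs of groups, so the number is the replicate block. The number of arrays limits the precision.

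The candidates for naming were the 15 largest rises and falls and, for each list, its first 3 genes and up to 6 called members. The text does not mention all of them. Among those left out are called probe sets of Timp1 and Alas1 (higher at 4 h) and of Idh2 and Pxn (lower at 4 h). None of these left-out calls was stable. Members and lists were chosen with earlier results of these data known. Other genes, said to be so, and Gchfr, Junb, Btg1, Tgfb2, Id3 and Prkacb were chosen after their values were seen.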

Additional observations from a re-analysis of the deposited data

Results flagged for a closer look

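Against the 2 h arrays, 32 probe sets differed at 4 h, and against the 1 h arrays 300 did, each tested by limma in the same fit. The values below are the log2 differences of 4 h minus 2 h for named genes past the threshold, and the counts with single arrays left out are those given in the report. For Agtr1a, Bmp3, Nexn, Sorbs2, Dcn, Fgfr1, Me1, Nqo1 and Slc16a1 the value is of 1 probe set. Other kept probe sets of these genes did not pass.

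Subunits of the nitric oxide receptor were lower at 4 h than at 2 h, Gucy1a1 by a difference of -2.28 and Gucy1b1 of -2.55. Genes of contraction, adhesion and matrix were lower too, with differences of -2.03 for Pln, -1.72 for Nexn, -2.36 for Sorbs2, -1.71 for Sdc3, a proteoglycan of the cell surface, and -2.79 for Dcn, whose level at 1 h had also been low. The signalling genes gave -1.37 for Agtr1a, -1.96 for Bmp3 and -1.87 for Tnfrsf11b, and the 2 probe sets of the lipid phosphatase Plpp1 gave -1.12 and -1.15. The nuclear receptor genes had been higher earlier, with -2.42 and -2.11 for the 2 probe sets of Nr4a2 and -1.93 for the probe set of Nr4a3 that was not called against control.

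Of the genes higher at 4 h than at 2 h, Nqo1 differed by 2.76, Cyp1b1 by 0.92 and 1.34 in 2 probe sets, Sod2 by 1.54 and Me1 by 1.21. Fgfr1 differed by 1.41, Srebf1 by 1.83, the lactate carrier Slc16a1 by 1.14 and Bcat1, an aminotransferase, by 1.16.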

How the results depend on the processing

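For 4 h against control (466 calls), fits by limma gave 90 calls with no replicate block, 308 on the 2 groups alone, 234 without a trend and 165 with the block set to the recorded experiment, and leaving out 1 array gave 184 to 480. Offsets of 1 and 100, no filter, a filter at the 60th percentile and both other scalings stayed within 1.5 times, at 414 to 475. None of the 466 calls changed sign in any of these settings. Ordinary least squares without the variance prior called 0 (953 at an unadjusted p under 0.05) against control, 0 (548) against 2 h and 0 (810) against 1 h, and so 0 for the gene lists and the named genes.

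For 4 h against 2 h (32), limma gave 0 with no replicate block (330 at an unadjusted p under 0.05), 101 on the 2 groups alone, 1 with the recorded experiment as the block, 15 with an offset of 1, 21 at the 60th percentile, 2 without a trend and 1 to 102 without single arrays. For 4 h against 1 h (300), the counts were 28 with no replicate block, 97 without a trend and 93 to 294 without single arrays. The calls in the gene lists (113) became 34 with no replicate block, 58 with the recorded experiment, 67 without a trend and 59 to 109 without single arrays. The called probe sets of the named genes (189) became 58, 88, 113 and 90 to 172. Of 222 called probe sets of named or singled-out genes, 88 kept the call without each array in turn and 0 reversed. Only 59 kept it in all settings other than ordinary least squares. The 222 include called probe sets of candidate genes that the text leaves out, such as Timp1 and Alas1. Signals near background limit the folds of weak probe sets.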

Other observations

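Outside the lists above, several called genes were singled out after their values were seen. Notch signalling is a contact-dependent pathway in which a ligand on a neighbouring cell leads to cleavage of the receptor, whose inner part then acts in the nucleus. Notch1, a receptor, rose from 169.7 and 305 in control to 715 and 695 at 4 h in 1 of 2 probe sets (log2 fold change 1.54, adjusted p = 0.00582 by limma), and Nrarp, an ankyrin repeat protein that Notch induces, from 135 and 160.0 to 576 and 414 (log2 fold change 1.60). Jag1, a ligand, fell from 2124 and 1069 to 429.9 and 314 (log2 fold change -1.98). Notch1 lost its call without control 1 (adjusted p = 0.0834), Nrarp without control 1 or 2 or 4 h 1 (up to 0.112) and Jag1 without control 1 or 4 h 1 (up to 0.176).

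Several enzymes of phospholipid signalling were called as lower. Plpp1, a lipid phosphatase, fell in all 3 probe sets and read 2450.4 and 2133 and then 1008 and 995 (log2 fold change -1.17), and the phospholipases Pld1 and Pld2 gave log2 fold changes of -1.25 and -1.63, Pld2 in 1 of 2 probe sets. Pdlim1, a cytoskeletal adaptor, fell from 8957 and 9986 to 3558 and 3659 (log2 fold change -1.39), and Marcks, a substrate of protein kinase C, from 1563 and 1601 to 432 and 669 (log2 fold change -1.52). Penk, the precursor of enkephalins, rose from 133 and 243 to 597 and 729 (log2 fold change 1.75). Metrnl, a secreted factor, read 227 and 459.9 and then 2833 and 1259 (log2 fold change 2.47), and Gja4, a gap junction protein, read 273 and 1352 and then 2493 and 4016 (log2 fold change 2.33). Of amino acid metabolism, Bcat1, which transaminates branched-chain amino acids, rose by 1.68 on the log2 scale, and Mat2a, which makes S-adenosylmethionine, fell from 1289 and 2097 to 364 and 626 (log2 fold change -1.74). The calls of Plpp1 at -1.75, Plpp1 at -1.74, Pdlim1, Penk, Bcat1 and Mat2a were stable, and Marcks at -1.52, Metrnl and Gja4 stayed called without each array in turn but not with the recorded experiment as the block. Plpp1 at -1.17 lost its call without control 1 (adjusted p = 0.0902), Pld1 at -1.25 without control 1 or 2 or 4 h 1 (up to 0.112), Pld1 at -1.50 without control 1 or 2 or 4 h 1 (up to 0.367), Pld2 without control 1 or 2 or 4 h 1 (up to 0.136) and Marcks at -1.38 without control 1 or 4 h 1 (up to 0.154). Marcks at -1.74 lost its call without control 1 (0.078). Plpp1 at -1.17 was not called with a common median and Pld1 at -1.50 was not called after quantile normalization.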
